A study of Mus musculus with 3 samples.

Results

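Apolipoproteins and lipoprotein lipase were followed across 3 genotypes of the fetal mouse testis. The members were Apoa1, Apoa2, Apob, Apoc1, Apoc2, Apoc3, Apoc4, Apoe, Apom and Lpl, and every array probe that the platform's annotation gave to one of these symbols was taken. This gave 16 probes for 10 genes, out of 41174 array probes of which 32664 carried a single symbol, for 19532 genes. Apob had 5 probes, Apoc3 and Lpl had 2 each, and the other 7 genes had a single probe. The family was chosen by measured values of these same columns, above all the low value of Apoc2 without Nanos2, so its values are given as a description.

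RNA came from whole gonads of male embryos at E14.5 and was read on Agilent arrays in a single colour. Gonads heterozygous for both genes (Nanos2+/- Stra8+/-) served as the control, so the control also carried 1 mutant allele of each gene. The other groups were Nanos2-/- Stra8+/- and Nanos2-/- Stra8-/-. NANOS2 binds RNA and is made by germ cells of the fetal testis. STRA8, induced by retinoic acid, is needed for germ cells to enter meiosis. Each genotype had 1 column of deposited values, whose title named replicates 1 and 2, so a column may combine 2 arrays. With 1 column per genotype there was no replicate check, no error estimate and no test, so precision is limited by how few arrays there were.

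Apolipoproteins are the protein coat of lipoprotein particles, which carry triglyceride and cholesterol through blood and lymph. Lipoprotein lipase, anchored to the endothelium, releases fatty acids from these particles. APOC2 is its obligatory activator and APOC3 restrains it, while APOB is the scaffold of the particles and APOE the ligand that lets receptors clear them. Most of these genes are best known from liver and intestine, whereas Apoe is also made by macrophages and steroid-producing cells and Lpl by fat and muscle. In the mouse, Apoe, Apoc1, Apoc4 and Apoc2 lie side by side in a cluster, as do Apoa1, Apoc3, Apoa4 and Apoa5.

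Apoc4 and Apoc2 follow each other on the same strand, and their 5′ flanks are shown because these neighbours differed most in the arrays. The sequences are those of RefSeq, build GRCm38.p6, minus strand, written 5′ to 3′ and ending at the base before the annotated start. The first is the stretch of 142 bases between the end of Apoc4 and the start of Apoc2 (chr7:19677942-19678083), and the second is the 250 bases before the start of Apoc4 (chr7:19681461-19681710). Capitals mark AGGTCA, the half-site of many nuclear receptors.
Apoc2: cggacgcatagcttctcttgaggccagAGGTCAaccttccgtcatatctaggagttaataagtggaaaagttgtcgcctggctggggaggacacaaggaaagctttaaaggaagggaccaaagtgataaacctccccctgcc
Apoc4: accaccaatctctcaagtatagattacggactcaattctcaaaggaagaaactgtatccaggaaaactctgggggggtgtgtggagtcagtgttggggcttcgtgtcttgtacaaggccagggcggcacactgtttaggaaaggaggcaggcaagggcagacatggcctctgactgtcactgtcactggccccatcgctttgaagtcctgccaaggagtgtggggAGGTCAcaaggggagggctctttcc
AGGTCA was searched on both strands and occurred once in each stretch, from 115 to 110 bases before the start of Apoc2 and from 25 to 20 bases before that of Apoc4. Of 32851 start windows in the RefSeq table, 8.12% held it when trimmed to the shorter length and 14.02% at the longer length. TATAAA, searched in the same way, was in neither stretch, against 7.30% and 12.4% of all windows. Start windows were also listed for Apoa1, Apoa2, Apob, Apoe and Apom.

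Values were deposited as linear ratios that lie near 1 for most probes. A value near 1 thus says nothing about the brightness of a probe, and levels of different probes cannot be compared. Differences are given as log2 of 1 column over another. The column medians over all probes were 0.941 in the control, 0.975 in Nanos2-/- Stra8+/- and 0.999 in the column labelled Nanos2-/- Stra8-/-. The median difference over all probes was 0.05 for Nanos2 loss (Nanos2-/- Stra8+/- minus control), 0.19 for combined loss (labelled Nanos2-/- Stra8-/- minus control) and 0.16 between both Nanos2-null columns. The control column gave Nanos2 itself 87.2, against 0.364 in Nanos2-/- Stra8+/- and 0.397 in the column labelled Nanos2-/- Stra8-/-. The probe of Stra8 stood at 0.108, 1.13 and 1.34 in the same order, and because its place relative to the deleted part is unknown here, it does not check the Stra8 label. Because the values are relative, marker genes of gonadal cells could not show whether a cell type was present.

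Apoc2 was far lower in both Nanos2-null columns, while Lpl, the enzyme it activates, and the neighbouring members of its cluster stayed close to their control values. Apoa2 and 1 probe of Apob were higher in the column labelled Nanos2-/- Stra8-/- alone, and the other 4 probes of Apob did not show that height. Every other member probe lay within 2-fold in all 3 comparisons. With Nanos2 loss, 1 of 16 probes was at least 2-fold lower and 0 were at least 2-fold higher. Over all array probes, 3.09% passed that size downward and 2.51% upward. In combined loss 1 probe was lower and 2 were higher, where 4.39% and 4.59% of all probes were. Between both Nanos2-null columns 0 were lower and 2 were higher, where 2.78% and 2.44% of all probes were. Since these contrasts served to choose the family, nothing is read from the counts.

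**Figure D1:**
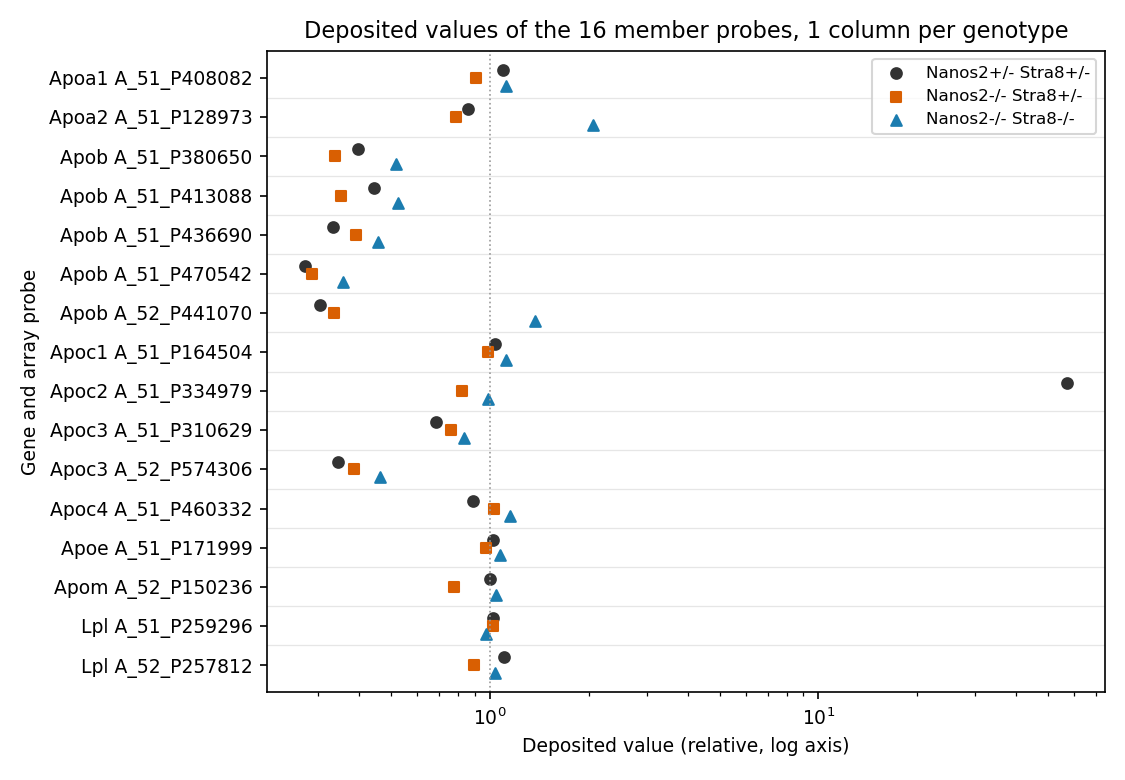
Deposited value (relative, log axis) of each of the 16 member probes, with 1 point per genotype column and a dotted line at 1. The control point of Apoc2 stands at 56.9, far to the right of every other point, and the points labelled Nanos2-/- Stra8-/- of Apoa2 and of 1 Apob probe stand at 2.06 and 1.37, to the right of the other points of those probes.

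Apoc2, the activator of lipoprotein lipase, stood at a deposited value of 56.9 in the control, 0.820 in Nanos2-/- Stra8+/- and 0.989 in the column labelled Nanos2-/- Stra8-/-. The control column was thus high and both Nanos2-null columns were low and near each other. The difference was -6.12 on the log2 scale with Nanos2 loss, or 69.4-fold lower, and -5.85 in combined loss, or 57.5-fold lower. Between both Nanos2-null columns it was 0.27, against a median of 0.16 over all probes. Counted from the lowest difference, the probe of Apoc2 took place 2 of 41174 in both comparisons with the control, behind that of Nanos2. Whether its low values lay above background is not known. Quantile normalization of the columns brought the differences to -4.05 and -3.70.

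The control column as a whole held most of the extreme values, with 49 probes above 5 against 1 and 2 in the other columns. The part of that column in the value of Apoc2 was not tested. Both comparisons of Apoc2 share this control column, so they do not stand as separate measurements. Apoc2 rested on a single probe, so no second probe could be set beside it. Among 8511 genes with 2 or more probes, 22 had a probe at least 8-fold lower with Nanos2 loss, and in 10 of them a second probe was at least 2-fold lower. All probes were at least 2-fold lower in 6 of these 22 genes.

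The probes whose paired differences from the control lay nearest to those of Apoc2 were those of 4933417A18Rik, Clca1, Gm16404, Vmn1r172 and Oas1d. The measure was the Euclidean distance in the plane of the differences from the control column, over 3 columns, and it ran from 1.09 for 4933417A18Rik to 1.80 for Oas1d. Clca1, a secreted protein of mucous epithelia, stood at 27.6 in the control, 0.905 in Nanos2-/- Stra8+/- and 0.564 in the column labelled Nanos2-/- Stra8-/-. Nanos2 lay farther from Apoc2, at 2.63. Of the 5, only Gm16404 had a second named probe, whose difference was -3.06 with Nanos2 loss against -5.16 for the first.

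**Figure D2:**
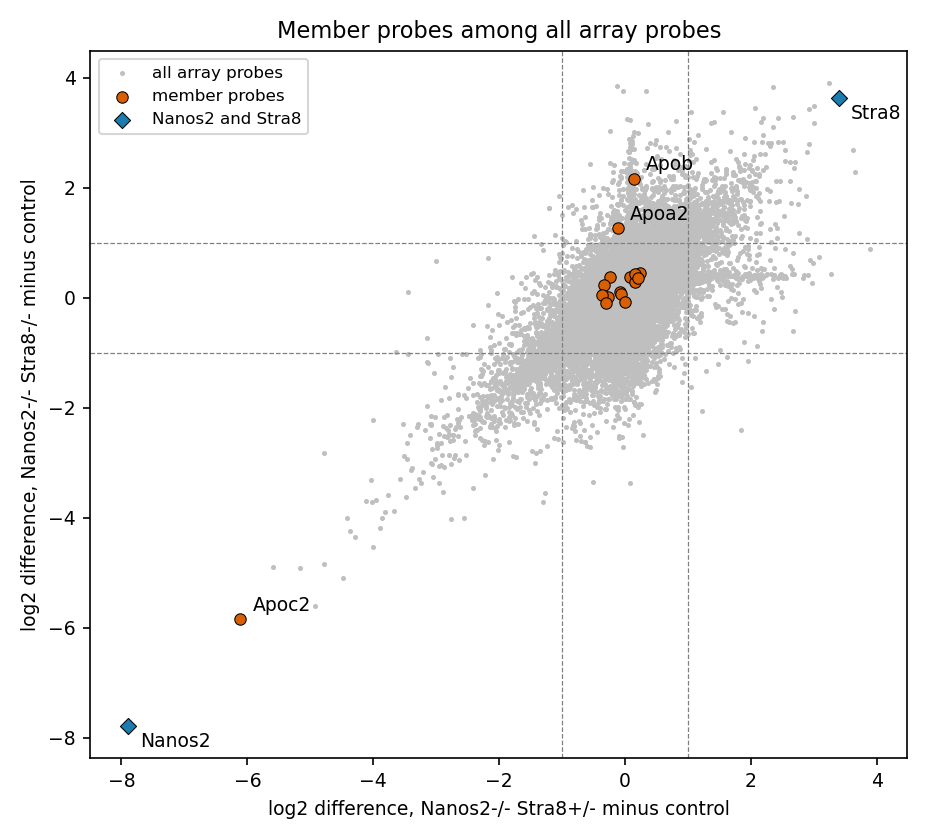
Log2 difference from the control column for Nanos2-/- Stra8+/- (x axis) and for the column labelled Nanos2-/- Stra8-/- (y axis), with all array probes in grey, member probes in orange, Nanos2 and Stra8 as blue diamonds, and dashed lines at 2-fold. Apoc2 stands at -6.12 and -5.85, second to Nanos2 at the lower left, and Apoa2 and 1 Apob probe stand above the upper dashed line.

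Lpl, the lipase itself, was measured by 2 probes. The first stood at 1.02 in the control, 1.03 in Nanos2-/- Stra8+/- and 0.974 in the column labelled Nanos2-/- Stra8-/-. The second stood at 1.10, 0.897 and 1.04 in the same order. The lowest column differed between the probes, and no difference exceeded 0.30 on the log2 scale. With Nanos2 loss the probes differed from the control by 0.01 and -0.30, and their gap of 0.31 compares with a median gap of 0.20 between probes of 1 gene. In combined loss both were slightly below the control, at -0.07 and -0.09.

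Apoc3, which restrains the lipase and slows clearance of particles, differed by less than 2-fold in both of its probes. Probe A_51_P310629 had deposited values of 0.685 in the control, 0.762 in Nanos2-/- Stra8+/- and 0.836 in the column labelled Nanos2-/- Stra8-/-. Probe A_52_P574306 had 0.344, 0.386 and 0.464. Each was lowest in the control and highest in the column labelled Nanos2-/- Stra8-/-, with differences of 0.15 and 0.16 for Nanos2 loss and 0.29 and 0.43 for combined loss. Apoc1, an inhibitor of lipoprotein uptake by receptors, stood at 1.04, 0.986 and 1.12 in the same order of columns.

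Apoe, the receptor ligand, was nearly level across genotypes, at 1.02 in the control, 0.972 in Nanos2-/- Stra8+/- and 1.08 in the column labelled Nanos2-/- Stra8-/-. Its differences from the control were -0.07 and 0.08. Apoc4, a minor C apolipoprotein, stood at 0.891, 1.03 and 1.15, with the control lowest and differences of 0.21 and 0.37. Apom, the carrier of sphingosine-1-phosphate in high-density lipoprotein, stood at 1.0001, 0.778 and 1.04. Its difference of -0.36 with Nanos2 loss was the lowest of any member after Apoc2, and in combined loss it was 0.06.

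The neighbours of Apoc2 did not share its difference. From Apoc2 to Apoe the members of the cluster had differences with Nanos2 loss of -6.12 for Apoc2, 0.21 for Apoc4, -0.07 for Apoc1 and -0.07 for Apoe. The 10 genes that the RefSeq table places next to this cluster, 5 on each side, included 8 with a named probe, and their 11 probes ranged from -0.74 to 0.49. In combined loss they ranged from -0.68 to 1.71. The extremes belonged to Nectin2 and Bcam, cell adhesion genes whose 2 probes each had opposite signs. The RefSeq table also holds Gm44805, a gene model that spans both Apoc2 and Apoc4. No probe was named for it, and the part of its transcript in the signal of the Apoc2 probe was not tested.

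**Figure D3:**
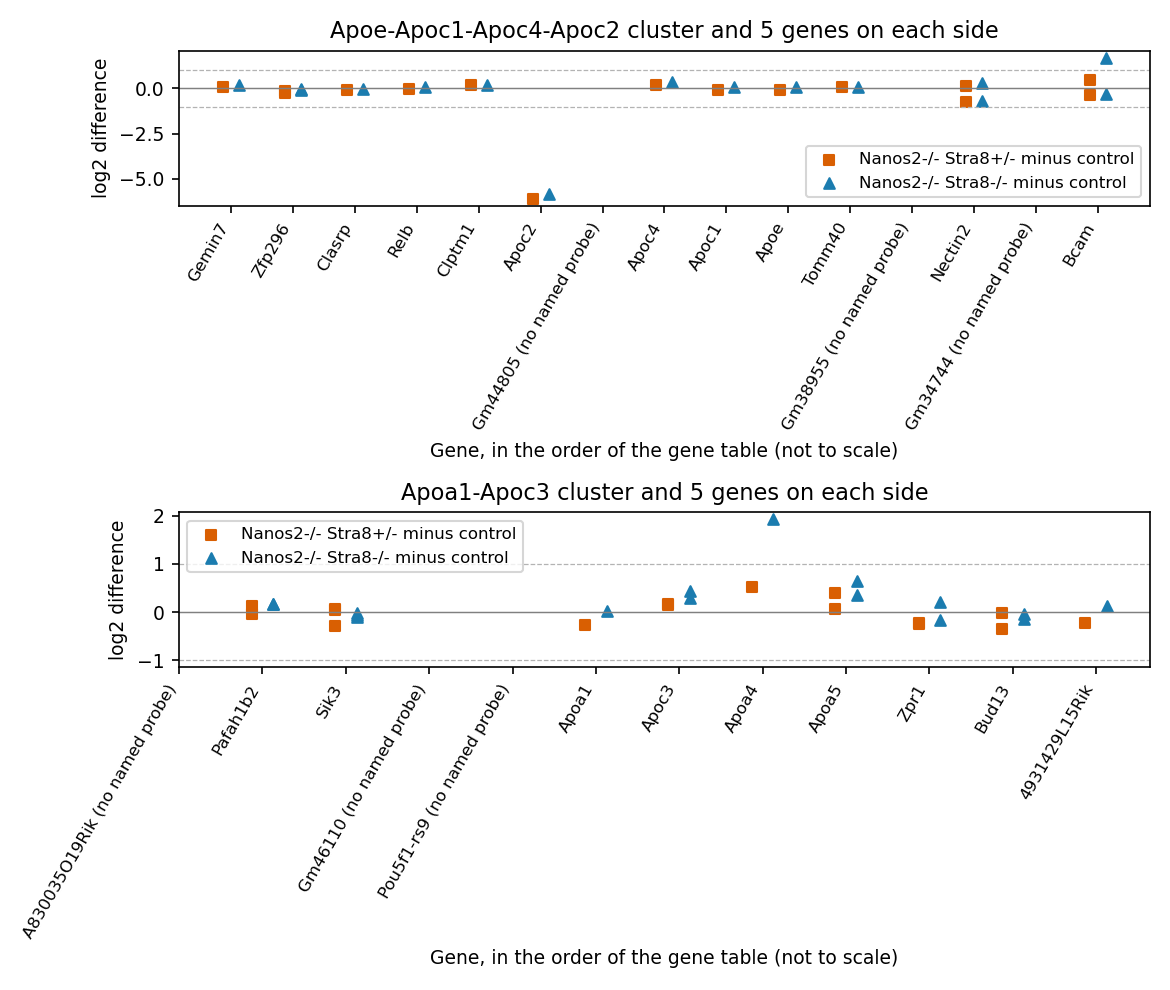
Log2 difference from the control column of each probe in the Apoe-Apoc1-Apoc4-Apoc2 cluster (top) and the Apoa1-Apoc3 cluster (bottom), with 5 flanking genes on each side in table order, squares for Nanos2-/- Stra8+/-, triangles for the column labelled Nanos2-/- Stra8-/- and dashed lines at 2-fold. Apoc2 stands at -6.12 and -5.85, while the other probes of the upper panel lie within 2-fold except 1 Bcam probe at 1.71, and in the lower panel Apoa4 stands at 1.92 in the column labelled Nanos2-/- Stra8-/-.

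Apoa2, a structural protein of high-density lipoprotein, stood at 0.857 in the control, 0.791 in Nanos2-/- Stra8+/- and 2.06 in the column labelled Nanos2-/- Stra8-/-. Only the last column was high. It was 2.40-fold above the control and 2.60-fold above Nanos2-/- Stra8+/-, while Nanos2 loss gave a difference of -0.12. Apoa1, the main protein of the same particles, showed no such height, at 1.10, 0.908 and 1.12 in the same order, which left differences of -0.28 with Nanos2 loss and 0.02 in combined loss. Apoa2 had a single probe.

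Apob, the scaffold of low-density lipoprotein and chylomicrons, was the only member with more than 2 probes, and they disagreed. Probe A_52_P441070 had deposited values of 0.305 in the control, 0.335 in Nanos2-/- Stra8+/- and 1.37 in the column labelled Nanos2-/- Stra8-/-, which is a combined-loss difference of 2.17. No fold is given, since its 2 low columns may have been at background. The other 4 probes stood between 0.274 and 0.444 in the control and between 0.356 and 0.525 in the column labelled Nanos2-/- Stra8-/-, with combined-loss differences from 0.24 to 0.45. With Nanos2 loss all 5 stayed between -0.33 and 0.23. The gap of 1.93 between the Apob probes in combined loss was wider than 1.35, under which 90% of genes with 2 or more probes lay. Averaged over its 5 probes, Apob had a difference of 0.72 in combined loss, under 2-fold.

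Those 4 probes of Apob and probe A_52_P574306 of Apoc3 belonged to a class of 7552 array probes, 18.3% of all, with values below 0.7 in all 3 columns. The negative control spot of the array met the same limit, at 0.352 in the control, 0.354 in Nanos2-/- Stra8+/- and 0.454 in the column labelled Nanos2-/- Stra8-/-. Its combined-loss difference was 0.36 and the median of the class was 0.37, beside a median of 0.38 for these 5 member probes. With Nanos2 loss the same values were 0.01, 0.06 and 0.07.

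Over the 16 member probes the median difference with Nanos2 loss was -0.07, beside 0.05 over all probes. Of them 7 were above 0 and 6 above the median of all probes. In combined loss it was 0.26 beside 0.19, with 13 above 0 and 9 above the median of all probes. Between both Nanos2-null columns it was 0.27 beside 0.16, with 15 above 0 and 12 above the median of all probes. There the class below 0.7 in all columns had a median of 0.30, and the negative control spot differed by 0.36. Without Apoc2 the member medians were -0.07, 0.29 and 0.27. The differences past 2-fold were those of Apoc2, Apoa2 and 1 Apob probe.

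Other apolipoproteins were examined from a list of 18 genes, all measured, with 27 probes. With Nanos2 loss 1 probe was at least 2-fold higher and 0 lower, and in combined loss 2 were higher and 0 lower, with list medians of 0.06 and 0.16. Beside the counts of this list and those below, 2.51% of all probes were higher and 3.09% lower with Nanos2 loss. In combined loss 4.59% were higher and 4.39% lower. Apoa4, an apolipoprotein of the intestine that lies next to Apoc3, had deposited values of 0.501 in the control, 0.724 in Nanos2-/- Stra8+/- and 1.90 in the column labelled Nanos2-/- Stra8-/-. Like Apoa2 it was highest in that last column, with a combined-loss difference of 1.92 from a single probe. Apol7a had differences of 1.24 and 0.32 by its 2 probes in combined loss. The first stood at 0.306 in the control, where the negative control spot stood at 0.352, and the second was below 0.7 in all columns. Apol10b had 0.98 in combined loss. The probes of Apol8 had 0.90 and 0.12 in combined loss but opposite signs with Nanos2 loss, at 1.11 and -0.25, of which the first was the probe counted as higher above. Apoa5, an activator of triglyceride hydrolysis beyond Apoa4 in the same cluster, had differences of 0.65 and 0.36 in combined loss, the second from a probe below 0.7 in all columns, where the negative control differed by 0.36.

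Among partners of the lipase, 14 of 16 listed genes were measured by 21 probes. With Nanos2 loss 1 probe was at least 2-fold higher and 1 lower, and in combined loss 0 were higher and 1 lower. Gpihbp1, which carries the lipase to the capillary wall, had differences of 0.04 with Nanos2 loss and 0.58 in combined loss. Lmf2, a relative of the lipase maturation factor, had -0.21 and -0.53, and Lipg, the endothelial lipase, had -0.22 and 0.38. Hspg2, a heparan sulfate proteoglycan that binds the lipase, had 0.30 and 0.69. Chosen after their values were seen, Angptl8, an inhibitor of the lipase, had 1 probe at -2.16 and another at 0.46 with Nanos2 loss, and Lipe, the hormone-sensitive lipase, had probes from -0.28 to 2.16, so neither gene had an agreed direction.

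Of 20 listed lipoprotein receptors and their regulators, 17 were measured by 34 probes. With Nanos2 loss 1 probe was at least 2-fold higher and 1 lower, and in combined loss 0 were higher and 1 lower. The higher probe was one of Msr1, at 1.80, while the other probes of that gene differed by -0.36 and -0.02 with Nanos2 loss. Lrp2, or megalin, a large endocytic receptor of epithelia, was below the control by all 4 of its probes in both comparisons. With Nanos2 loss its probes ranged from -1.65 to -0.33, and in combined loss from -2.08 to -0.67. Lrp8, a receptor for APOE and reelin, was above the control by all 3 probes. Their differences lay between 0.19 and 0.67 with Nanos2 loss and between 0.48 and 0.98 in combined loss. Sorl1, a sorting receptor, had -0.02 and -0.95, and the WNT co-receptor Lrp6 had 0.43 and 0.68 by 1 probe and 0.05 and 0.43 by the other.

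Transcription factors known to act on apolipoprotein genes in liver and intestine were measured for 20 of 22 listed genes by 32 probes. With Nanos2 loss 1 probe was at least 2-fold higher and 2 lower, and in combined loss 3 were higher and 1 lower. Creb3l3, a liver factor, had deposited values of 2.91 in the control, 0.937 in Nanos2-/- Stra8+/- and 0.891 in the column labelled Nanos2-/- Stra8-/-. The control value was the highest, with differences of -1.64 and -1.71. Foxa2, a factor of endoderm, stood at 0.496, 0.996 and 2.05 in the same order. In combined loss Hnf4a had 1 probe at 1.21 and 2 others at 0.37 and 0.36, and Hnf4g had probes at 1.15 and 0.37. The probes at 0.36 and 0.37 were below 0.7 in all columns, a class whose median in this comparison was 0.37. Whether any of these values bears on the apolipoproteins was not tested.

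**Figure D4:**
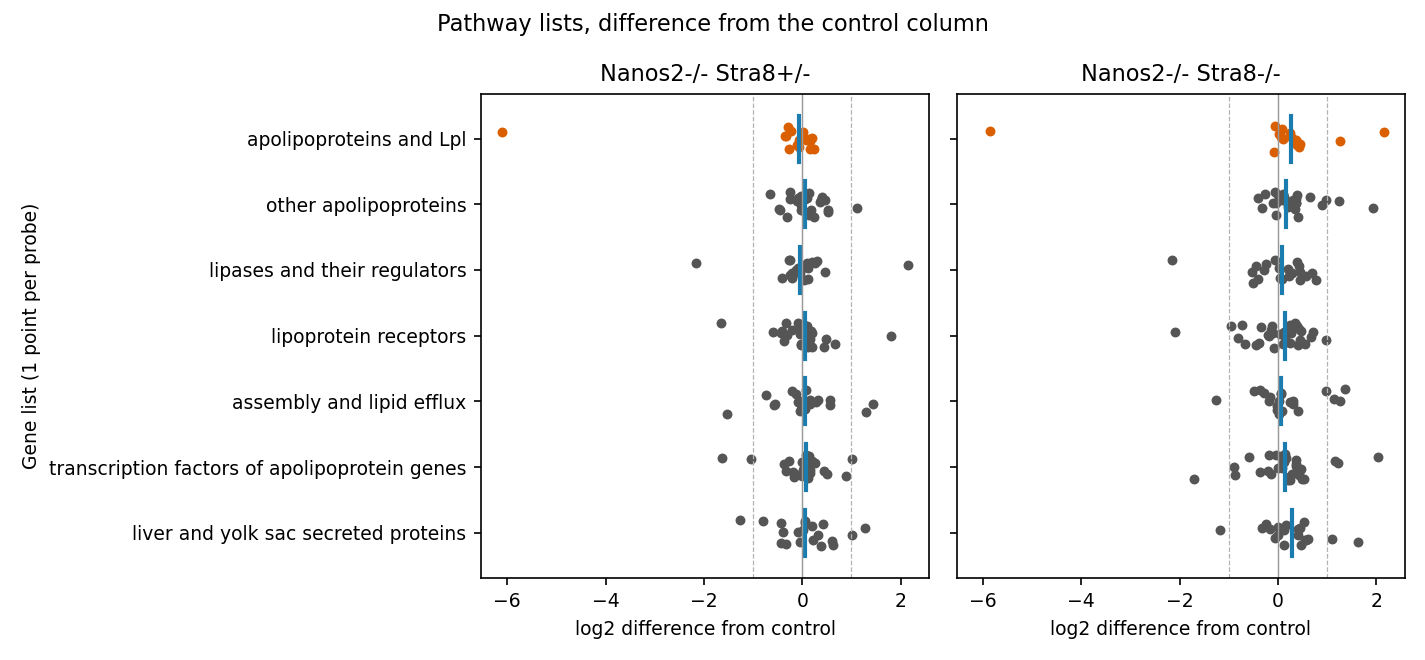
Log2 difference from the control column of each probe, 1 point per probe, for the apolipoproteins and Lpl (orange) and 6 lists of related genes (grey), in Nanos2-/- Stra8+/- (left) and the column labelled Nanos2-/- Stra8-/- (right). Blue bars are medians, which lie between -0.07 and 0.07 on the left and between 0.06 and 0.29 on the right, and Apoc2 is the far point at the left of each panel.

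Markers of tissues that make apolipoproteins are given for the same columns, and their part in the member values was not tested. Of 6 hepatocyte markers 5 were measured, 1 probe each. Their median difference was 0.06 with Nanos2 loss and 0.17 in combined loss, beside 0.05 and 0.19 over all probes. Their signs were mixed, with Alb at 1.01 and Afp at -0.79 with Nanos2 loss. The 4 adipocyte markers had 6 probes, with medians of 0.02 and 0.06 in the same order. Adipoq and Cidec were below the control in both comparisons, at -2.30 and -2.41 with Nanos2 loss, whereas Plin1 differed by 0.08 and the 3 probes of Fabp4 by 0.02 to 0.18. The 11 probes of 7 macrophage markers had medians of 0.12 and 0.15, and none differed by 2-fold in any comparison. The 7 probes of 4 fetal Leydig markers had medians of -0.07 and -0.04. Of these, 1 of 3 probes of Cyp11a1 differed by -1.15 in combined loss while the others differed by 0.21 and 0.07. Outside these tissues, the 7 probes of 6 germ cell markers had medians of 0.37 and 0.28. Of them 5 were above 0 in each comparison with the control, and none differed by 2-fold. No marker value was 0. In RNA from whole gonads, fewer cells of a type and less RNA per cell cannot be told apart.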

How the data were processed

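Total RNA of male gonads was amplified to Cy3-labelled cRNA, per the labels' protocols, and the submitters' processing notes name Agilent Feature Extraction 9.5. The authors deposited a ratio per probe, on a linear scale, in 1 column per genotype. The normalization and the way arrays were combined are not given in the sources used here. From the values, 62.4% of probes had a middle value between 0.95 and 1.05, and 0 probes exceeded 1.001 in every column, as a division of most probes by their own middle value would leave them.

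After 93 control spots were left out, 41174 probes were used. The platform's annotation named 1 gene for 32664 probes, several for 45, and did not list 8465. Log2 differences between columns were computed per probe with Python 3.11.15 and pandas 2.3.3, with no filter and no pseudocount, and counted at 1 (2-fold). The counting steps were tested on simulated data. No test was possible with 1 column per group.

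The text names Nanos2, Stra8, every member probe, up to 4 genes per list with the largest difference among genes whose probes share a sign, 5 flanking genes on each side of both clusters that reach 2-fold by every probe (only Apoa4 did), and the 5 probes nearest to Apoc2. Genes outside this rule (Apoa5, Nectin2, Bcam, Angptl8, Lipe, Msr1, Abcg8, Mttp, Amn, Dab2 and the markers) were chosen after their values were seen or come from fixed marker lists. The members and lists were chosen with earlier results of these data known. Alternatives were centred columns, quantile normalization, a pseudocount of 0.1, a filter at the column median and the mean of a gene's probes.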

Additional observations from a re-analysis of the deposited data

How the results depend on the processing

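The number of member probes at least 2-fold different was 1 for Nanos2 loss under the main setting and all 6 alternatives (centred columns, quantile normalization, a pseudocount of 0.1, a filter at the column median, the mean of a gene's probes, and, chosen after seeing the data, leaving out probes below 0.7 in all columns). For combined loss it was 3, and 2 genes by the mean of a gene's probes. Over the same settings the share of all probes or genes past 2-fold ran from 4.26% to 6.24% for Nanos2 loss, from 6.80% to 10.5% for combined loss and from 3.07% to 6.07% between both Nanos2-null columns. For the comparison between both Nanos2-null columns it was 2, and 1 gene by that mean, because the 5 Apob probes then counted once, at 0.75. The share of all member differences above 0 was 72.9% in the main setting and between 62.5% and 72.9% under the alternatives. Medians over all probes were themselves above 0 in the main setting, at 0.05, 0.19 and 0.16, and no such share over all probes is given. The comparison between both Nanos2-null columns also follows from the others, so nothing is read from this share. Small differences depended on the scaling, since centring turned the sign of 1, 3 and 0 of 16 member probes in the order of comparisons above and quantile normalization that of 0, 4 and 1. Apoc2 ranged from -6.17 to -4.05 with Nanos2 loss. The filter at the column median left 10 of 16 member probes. Apoc2 passed this filter only through its high control value. Apoa2 and probe A_52_P441070 of Apob passed it only through the column labelled Nanos2-/- Stra8-/-. That Apob probe passed the limit of 0.7 through the same column alone. Neither filter changes a difference, and the mean leaves a gene with a single probe as it was. For Apoc2 and Apoa2 these settings thus repeated the main values and were no check of them. No paired analysis was possible because each genotype had 1 column, and for the same reason no replicate could be left out.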

Other observations

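Genes of particle assembly and lipid efflux were measured for 14 of 16 listed genes by 21 probes. With Nanos2 loss 2 probes were at least 2-fold higher and 1 lower, and in combined loss 3 were higher and 1 lower. Beside the counts of this section, 2.51% of all probes were higher and 3.09% lower with Nanos2 loss. In combined loss 4.59% were higher and 4.39% lower. In each comparison the lower probe and 1 of the higher probes belonged to the same gene, Abcg8. Its probes differed by -1.53 and 1.44 with Nanos2 loss and by -1.26 and 1.14 in combined loss, so it had no agreed direction. Mttp, which loads lipid onto APOB, differed by -0.20 and -0.16. Dgat2, an enzyme of triglyceride synthesis, was below the control by all 3 probes with Nanos2 loss, from -0.75 to -0.55, and ranged from -0.49 to 0.02 in combined loss. Prap1, a lipid-binding partner of the MTTP reaction, had deposited values of 0.540 in the control, 1.33 in Nanos2-/- Stra8+/- and 1.40 in the column labelled Nanos2-/- Stra8-/-, so both Nanos2-null columns were above the control. Tm6sf2, a factor of lipoprotein secretion, had combined-loss differences of 1.26 and 0.32 by its 2 probes. Abcg1, a cholesterol exporter, had 0.57 with Nanos2 loss and 0.98 in combined loss.

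Secreted proteins of liver and yolk sac were measured for 17 of 18 listed genes by 20 probes, with 2 probes at least 2-fold higher and 1 lower in each comparison with the control. Ambp, whose product is a precursor that yields a plasma protease inhibitor, differed by 1.27 with Nanos2 loss and 1.63 in combined loss. Cubn, the epithelial receptor cubilin that works with megalin, differed by -1.27 and -1.18. Like Lrp2, which encodes megalin, it was below the control in both comparisons. Amn, of the same list, differed by -0.43 and -0.01. The probes of Dab2 lay between -0.09 and 0.06 with Nanos2 loss and between -0.23 and 0.41 in combined loss. The highest in each case came from a probe below 0.7 in all columns. The 7 probes of 5 mesonephric epithelial markers had median differences of 0.92 with Nanos2 loss and 0.30 in combined loss. In each comparison with the control 3 of them were at least 2-fold higher and 0 lower. Lhx1, a homeobox factor, differed by 1.29 and 1.47 with Nanos2 loss, and Pax8, a renal transcription factor, by -0.74 and -0.19. The part of this tissue in the values of Cubn and Lrp2 was not tested. Fabp1, a fatty acid-binding protein of liver, differed by 0.62 and 1.09. Its control value of 0.358 was near the 0.352 of the negative control spot, so it may have been at background there.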
